A study of Mus musculus with 66 samples.

Results

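Mouse small intestinal organoids grown without R-spondin (EN) were compared with organoids of the same kind grown with it (ENR), by RNA-seq. These are 8 of the 66 samples of the series, 4 EN and 4 ENR libraries, chosen by the medium and assay that the labels give. Of 9481 transcripts in the authors' table, 9288 were tested, those detected in 4 or more of the 12 libraries fitted. Their index held only RefSeq transcripts whose proteins had been quantified, so genes outside that set, including many with low expression, were not analysed here.

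The organoids carried a GFP and diphtheria toxin receptor cassette in 1 Lgr5 allele (Lgr5 GFPDTR/+), a genotype that EN and ENR cultures shared. Both media contained Noggin (10% conditioned medium) and epidermal growth factor (50 ng/ml), and ENR alone also contained R-Spondin-1 (5% conditioned medium). The paper maintained the organoids in ENR and left R-Spondin-1 out of EN cultures for only a few days. Another culture, CV, was ENR with 3 µM CHIR99021, which activates Wnt signalling through GSK3, and 1 mM valproic acid, which inhibits histone deacetylases. CV enters here through the estimate of replicate spread and through the choice of transcripts tested, and no CV values are compared. The labels do not say whether the 4 libraries of a medium came from separate cultures or organoid lines, so the p-values measure the spread between these libraries, which may be technical. Total RNA was depleted of ribosomal RNA rather than selected for poly(A) tails, so histone mRNAs, which lack such tails, were measured too.

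R-spondins bind Lgr4 and Lgr5 and keep the ubiquitin ligases Rnf43 and Znrf3 from removing Frizzled receptors, which sustains Wnt signalling at the crypt base. Stem cells and the progenitors above them divide under that signal. Their progeny differentiate as they move onto the villus into absorptive enterocytes, which digest and take up nutrients, or into goblet, enteroendocrine, tuft and Paneth cells, of which the Paneth cells stay in the crypt and feed the stem cells with Wnt ligand.

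EN libraries held 5630951 to 8859744 expected counts and ENR libraries 5685958 to 7408738. In EN the 10 most abundant transcripts took 11.3% to 11.8% of the counts, against 6.94% to 7.005% in ENR. Levels are given as TPM, a measure of transcript abundance that is corrected for length and can be compared between genes. Fold changes are from counts after TMM normalization, which sets aside the most abundant and most changed transcripts, so they run slightly above the ratio of the TPM values. Calls were made by edgeR's quasi-likelihood test, with a Benjamini-Hochberg adjusted p of 0.01 as the limit. Each SE given is the size of the log2 fold change divided by the square root of that test's F statistic. For transcripts with few counts in a group such an SE can understate the uncertainty of the size.

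Of the 9288 transcripts, 6756 were called, which is 72.7%. In EN 3301 (35.5%) were higher and 3455 (37.2%) lower. At least 2-fold changes were called for 2795 (30.1%), with 1217 higher and 1578 lower. The largest changes were mostly falls: 318 transcripts fell and 90 rose at least 8-fold. The 4 EN values lay above all 4 ENR values for 36.3% of transcripts and below them for 37.9%, on the scale of CPM, counts scaled to library size after TMM. The median log2 fold change over all transcripts was -0.01, and the median size among those called was 0.84. With so many transcripts called, being called says little by itself, and the direction and size within a gene group carry more. Counts of higher and lower within each list below are to be read beside these 35.5% and 37.2%.

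**Figure D1:**
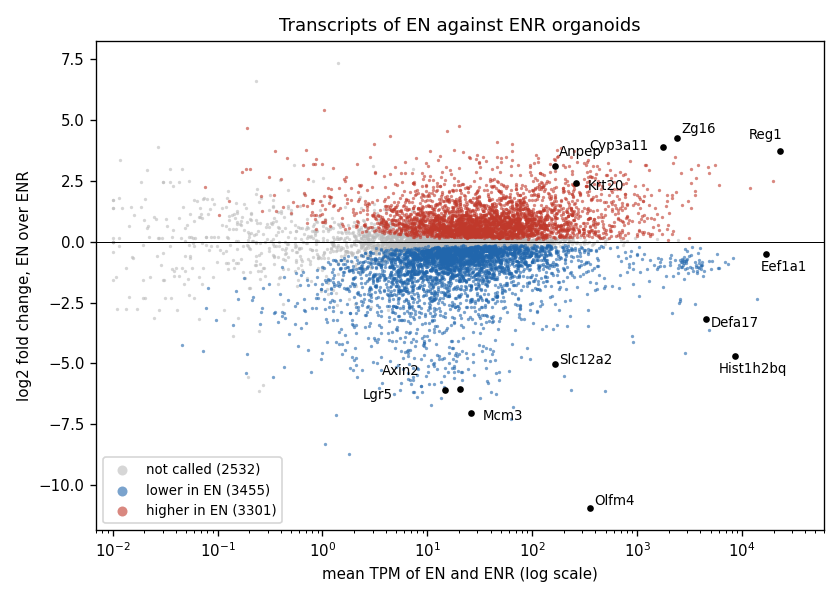
Log2 fold change of EN over ENR against the mean TPM of both groups (log axis, means under 0.01 TPM drawn at 0.01) for the 9288 transcripts tested, coloured by call. The 2532 transcripts not called include most of those with a low mean, the large changes reach further down than up, and Olfm4 lies lowest of the labelled transcripts at -10.94.

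Of the 3 genes that mark the comparison, Anpep and Krt20 rose and Axin2 fell. Anpep (XM_006540678.3), the aminopeptidase N of the enterocyte brush border, stood at 299.8, 283, 291 and 283 TPM in the EN libraries and at 35.2, 35.0, 35.3 and 42.3 TPM in the ENR libraries. Every EN library lay far above every ENR library. The rise was 8.72-fold (log2 3.12, SE 0.05, adjusted p = 2.9e-16).

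Krt20 (NM_023256.2), a keratin of differentiated epithelium, had 459, 454, 379 and 434 TPM in EN and 96.9, 80.3, 90.9 and 92.0 TPM in ENR, a 5.35-fold rise. Axin2 (XM_006532060.1), a feedback inhibitor and direct target of Wnt signalling, had 0.355, 0.551, 0.344 and 0.326 TPM in EN and 31.3, 27.9, 29.5 and 28.2 TPM in ENR. Axin2 was thus nearly absent from all 4 EN libraries, where it rested on 6 to 8 counts each. Its log2 fold change was -6.08 (SE 0.12, adjusted p = 8.7e-16). With so few counts in EN the size is less certain than this SE shows.

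The other enterocyte markers of the study rose as well. Vil1, which bundles actin in microvilli, was at 961 ± 45.7 TPM (SD, n = 4) in EN and 414 ± 14.0 in ENR. Alpi, the intestinal alkaline phosphatase, was at 371 ± 15.6 and 113 ± 7.85 TPM. Ptk6, a kinase of differentiated epithelium, lay between 15.7 and 18.2 TPM in EN and between 4.28 and 5.18 TPM in ENR. Their log2 fold changes were 1.38, 1.88 and 2.00, each without overlap between the groups. In a bulk sample fewer cells of a type and less RNA of a gene per cell cannot be told apart, which holds for every level given here.

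**Figure D2:**
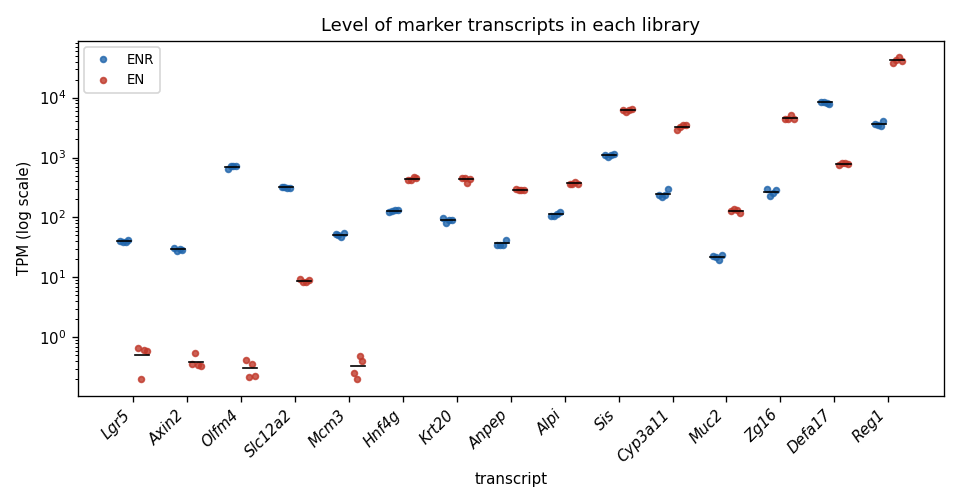
TPM (log axis) of 15 transcripts in each of the 4 ENR and 4 EN libraries, with a bar at each group's mean. No transcript overlaps between the groups, and Lgr5, Axin2, Olfm4 and Mcm3 are under 1 TPM in every EN library, while Reg1 is at 37759 TPM or more there.

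Genes of the stem cell zone fell together. Of 23 tested transcripts of Wnt targets and stem cell genes, 22 fell at least 2-fold and none rose, with a median log2 fold change of -3.33 (-2.93 with the 4 transcripts at or under 3 counts in every EN library set to that floor). Their summed level was 2036 ± 44.4 TPM in ENR and 134 ± 3.28 TPM in EN. The exception was Lef1, a nuclear partner of beta-catenin, which had at most 1 count in any of these libraries and was not detectable at this depth.

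Olfm4 (XM_006519174.3), a secreted glycoprotein used as a stem cell marker, had the largest fall of the list. It was at 654, 714, 734 and 728 TPM in ENR and at 0.422, 0.218, 0.364 and 0.222 TPM in EN. The EN libraries held only 2 to 6 counts of it against 7586 to 10041 in ENR. Its log2 fold change was -10.94 with an SE of 0.27.

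Lgr5 (NM_010195.2), the R-spondin receptor that marks crypt base stem cells, was at 40.2, 39.6, 38.7 and 42.3 TPM in ENR. In EN it was at 0.660, 0.198, 0.605 and 0.592 TPM, with 3 to 17 counts per library. The log2 fold change was -6.07 (SE 0.12, adjusted p = 9.2e-16). Its relative Lgr4, which also binds R-spondin, changed far less, from 78.4 ± 1.72 to 54.8 ± 2.31 TPM, a log2 fold change of -0.36 that turned to 0.63 on the deposited copies.

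Slc12a2, a chloride cotransporter of crypt cells, fell from 318 ± 4.44 to 8.71 ± 0.473 TPM. Ccnd1, the cyclin that opens the cell cycle, fell from 64.4 ± 2.80 to 2.59 ± 0.296 TPM, and Sox9, a transcription factor of crypt cells, from 9.65 ± 1.13 to 1.27 ± 0.270 TPM.

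The genes listed as machinery of the Wnt signal did not move with its targets as a group. Lgr5 and Axin2, which also act in the pathway, were counted among the targets and not in this list. Of 20 tested transcripts of Wnt receptors and beta-catenin regulators, 8 rose, 7 fell and 5 were not called, and the median log2 fold change was 0.06, or -0.45 with spike-in scaling and -0.10 on log2(TPM + 1). That is 15 of 20 called, against 72.7% of all transcripts. Wls, which carries Wnt ligands to the cell surface, had the largest change, from 28.9 ± 1.67 to 3.74 ± 0.472 TPM. It was the only member called at 2-fold or more. Ctnnb1, beta-catenin itself, was at 551 ± 13.7 TPM in ENR and 585 ± 8.01 TPM in EN, a log2 fold change of 0.25 that turned to -0.27 with spike-in scaling. Lrp6, the Wnt coreceptor, rose by 0.75 and Gsk3a, a kinase of the destruction complex, by 0.79 on the log2 scale.

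Notch and BMP genes had no common direction. Of 18 Notch pathway transcripts 7 rose and 5 fell (66.7% called, against 72.7% of all transcripts), with a median of 0.01 that turned to -0.48 with spike-in scaling and to -0.05 on log2(TPM + 1). Numb, which restrains Notch, rose by 1.37. Of 10 BMP pathway transcripts 7 were not called, only Bmp3 rose (log2 1.41), and Id1 and Smad5, a target and a mediator of BMP signalling, fell by 1.14 and 0.71, where Smad5 turned to 0.34 on the deposited copies. Of the EGF receptor family and its partners, Erbb3 rose by 1.20 while its inhibitor Lrig1 fell by 1.46 and Egfr by 0.87 on the log2 scale, Egfr turning to 0.19 on the deposited copies.

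Genes of cell division fell almost without exception. Of 49 transcripts for DNA replication 48 fell, with a median log2 fold change of -3.43, and of 49 for mitosis and cyclins all 49 fell, with a median of -4.60. The summed level of the mitosis list was 2058 ± 56.9 TPM in ENR and 142 ± 10.1 TPM in EN, and that of the replication list 2699 ± 55.6 and 479 ± 10.9 TPM.

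Mcm3 (NM_008563.2), a subunit of the replicative helicase, stood at 52.0, 51.6, 46.9 and 54.3 TPM in ENR and at 0.255, 0.198, 0.495 and 0.403 TPM in EN, where it had 2 to 6 counts per library. Its log2 fold change was -7.04 (SE 0.12). Uhrf1, which brings the maintenance methyltransferase to replicated DNA, fell 86.0-fold, the primase subunit Prim1 52.8-fold and the helicase subunit Mcm5 56.0-fold. Nuf2, a kinetochore protein, fell 48.2-fold.

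Top2a, the topoisomerase of dividing cells, is listed as a pair of transcripts between which the counting split reads unevenly, with levels from 0 to 3.29 TPM for the same transcript in different EN libraries. Summed per gene, Top2a was at 206 to 213 TPM in ENR and 3.07 to 4.09 TPM in EN, a log2 fold change of -5.78. The proliferation marker Mki67, likewise summed, was at 34.9 to 38.4 TPM in ENR and 1.23 to 1.67 TPM in EN.

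At the limit of detection, 12 transcripts with a mean of at least 5 TPM in ENR had 3 counts or fewer in every EN library, and no transcript showed the opposite. They include Chaf1b, a subunit of the histone chaperone that loads new nucleosomes, with 163 to 221 counts in ENR and 1 to 2 in EN. Pole2, a subunit of the leading strand polymerase, had 107 to 173 counts in ENR and 0 to 3 in EN. Asf1b, another histone chaperone, had 96 to 127 and 1 to 3 counts. No fold is given for these.

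Histone genes showed the same direction. All 14 tested replication-type histone transcripts fell, with a median log2 fold change of -3.25, and their summed level was 68590 ± 3290 TPM in ENR and 7737 ± 651 TPM in EN. This group was counted after its members appeared among the largest losses. Hist1h2bq (NM_001313880.1) was at 15291, 17398, 16684 and 16108 TPM in ENR and 567, 466, 585 and 565 TPM in EN. Hist1h4i fell from 23652 ± 1214 to 4002 ± 474 TPM. These genes are near copies of each other, and how reads were shared among them is uncertain.

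Among cell cycle inhibitors 6 of 9 rose and 3 fell, beside 35.5% higher and 37.2% lower of all transcripts. Cdkn2b rose from 75.6 ± 3.19 to 313 ± 18.1 TPM and Cdkn1a by 1.23 on the log2 scale, while Cdkn2c fell from 21.4 ± 1.34 to 2.83 ± 0.238 TPM.

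Genes that build the translation machinery also fell. Of 59 transcripts for ribosome assembly 57 fell, with a median log2 fold change of -1.74. Gnl3, a nucleolar GTPase of proliferating cells, fell 12.2-fold, and Nop56, a core protein of the particles that methylate ribosomal RNA, 8.47-fold. Of 74 transcripts of cytosolic ribosomal proteins 73 fell and none rose, with log2 fold changes from -1.54 to -0.13 over the list and a median of -0.91. Their summed level went from 273301 ± 1401 TPM in ENR to 128467 ± 2984 TPM in EN. Rpl32 was at 8759, 8511, 8519 and 8285 TPM in ENR and 3748, 3579, 3463 and 3467 TPM in EN. Rps27l, a stress-induced paralog of Rps27, did not pass the test (log2 -0.13). On the deposited mRNA copies the median of this group was -0.21, against 1.06 for all transcripts.

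Eef1a1, the factor that brings tRNAs to the ribosome, fell from 20528 ± 122 to 13080 ± 333 TPM, a log2 fold change of -0.49 that turned to 0.14 on the deposited copies. Of 21 transcripts of cytosolic aminoacyl-tRNA synthetases 19 fell (median -0.67, or 0.29 on the deposited copies). Of 26 nucleoporin transcripts 23 fell (median -1.53), with Nup85 at 9.79-fold. Of 70 transcripts of splicing factors 62 fell (median -0.82, or 0.10 on the deposited copies). Mitochondrial ribosomal proteins moved less, with 46 of 80 transcripts lower and 6 higher (median -0.35, or 0.63 on the deposited copies). That is 65.0% called, against 72.7% of all transcripts.

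**Figure D3:**
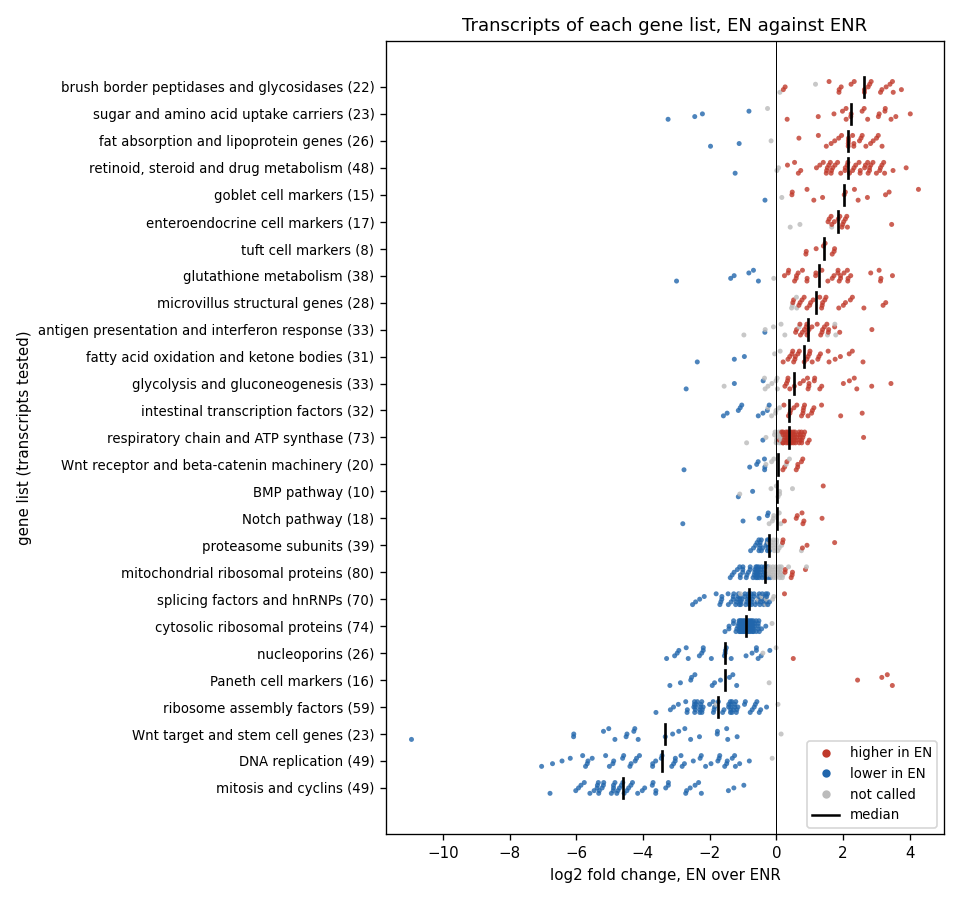
Log2 fold change of EN over ENR for every tested transcript of 27 gene lists, ordered by the list's median (black bar), with the number tested in brackets. The lists for cell division and Wnt targets lie wholly or almost wholly below 0, those for digestion and absorption mostly above it, and the Wnt machinery, Notch and BMP lists straddle it, with medians whose sign changes with spike-in scaling.

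Genes of digestion and absorption rose. Of 22 transcripts of brush border peptidases and glycosidases 20 rose and none fell, with a median log2 fold change of 2.64. Their summed level was 11851 ± 298 TPM in EN and 2250 ± 112 TPM in ENR. Sis (XM_006502044.1), sucrase-isomaltase, which splits dietary sugars, was at 6098, 5833, 6124 and 6374 TPM in EN and 1100, 1039, 1098 and 1132 TPM in ENR. Ace, a peptidase of the brush border, rose 13.5-fold, Naaladl1, another peptidase, 11.4-fold and Ggt1, which cleaves glutathione at the cell surface, 11.2-fold.

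Of 26 transcripts for fat absorption and lipoproteins 23 rose, with a median of 2.16. Fabp1, a carrier of fatty acids in the cytosol, was among the most abundant transcripts of EN, at 34239, 35513, 29500 and 32889 TPM against 6872, 6224, 6743 and 7120 TPM in ENR. Fabp2 rose 8.32-fold and the chylomicron apolipoproteins Apoa1, Apoa4 and Apoc3 8.02-fold, 7.09-fold and 9.00-fold. The exceptions were Scarb1, a receptor for high-density lipoprotein, which fell from 8.93 ± 0.595 to 1.98 ± 0.491 TPM, and Acsl3, an acyl-CoA synthetase, which fell 2.17-fold.

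Among 23 transcripts of sugar and amino acid carriers, 18 rose and 4 fell (median 2.23). The inositol and sugar cotransporter Slc5a11 rose 16.2-fold, the peptide transporter Slc15a1 10.8-fold and the hexose transporter Slc2a7 by 3.58 on the log2 scale. The members that fell all carry amino acids. Slc7a5, the large neutral amino acid exchanger of growing cells, fell from 7.85 ± 0.754 to 0.721 ± 0.177 TPM, Slc38a1 fell 5.45-fold and the glutamine carrier Slc1a5 4.65-fold. Slc1a1, a glutamate carrier, fell by 0.82 on the log2 scale, or was at 0.20 on the deposited copies.

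Carriers were also among the largest rises outside the lists, with a mean of at least 10 TPM in EN. Slc5a4a (NM_133184.2), a glucose sensor of the sodium cotransporter family, was at 37.9, 38.9, 39.2 and 38.3 TPM in EN and 2.31, 0.864, 1.61 and 1.33 TPM in ENR, the largest rise at 27.5-fold. Slc28a1, a pyrimidine nucleoside carrier, rose 17.4-fold, Slc5a4b 14.3-fold, the water channel Aqp8 13.6-fold and Slc13a2, a carrier of citrate, 13.4-fold. Slc5a4a and Slc5a4b are close paralogs, and their reads may be shared. Dnase1, a secreted nuclease, rose 13.5-fold, from 38.3 ± 3.52 to 463 ± 34.2 TPM.

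Of 28 transcripts for the scaffold of the microvilli 24 rose and none fell, with a median of 1.20. Pdzk1, a scaffold for apical carriers, rose 9.72-fold.

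Metabolic genes of mature enterocytes rose as well. Of 48 transcripts for retinoid, steroid and drug metabolism 45 rose, with a median of 2.13. Cyp3a11 (NM_007818.3), a cytochrome P450 that oxidises drugs and steroids, was at 2865, 3203, 3490 and 3552 TPM in EN and 236, 216, 241 and 295 TPM in ENR, a 14.8-fold rise. Outside that list, Cyp2d34 and the retinol dehydrogenase Rdh9 rose 23.2-fold and 13.6-fold. The P450 genes are partly near-identical, so single members are uncertain. Akr1b8, an aldo-keto reductase, was the only member of the list to fall (2.35-fold). Adh1, an alcohol dehydrogenase, was at 9741 ± 86.6 TPM in EN and 2177 ± 134 TPM in ENR.

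Of 38 transcripts for glutathione metabolism 31 rose (median 1.28), led by the surface peptidases Ggt1 and Anpep and the transferase Gsta1, which rose 8.79-fold. Gpx2, the intestinal glutathione peroxidase of the crypt, fell from 134 ± 4.44 to 15.0 ± 2.88 TPM. Gsr and Idh2, which recycle glutathione and supply its NADPH, fell 2.40-fold and 2.58-fold.

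In energy metabolism members of the same pathway parted. Of 33 transcripts for glycolysis and gluconeogenesis 22 rose and 3 fell, beside 35.5% higher and 37.2% lower of all transcripts. Pck1, the cytosolic enzyme that starts glucose synthesis, rose from 4.72 ± 1.16 to 46.3 ± 4.19 TPM, while Pck2, its mitochondrial counterpart, fell from 42.1 ± 1.13 to 5.73 ± 0.769 TPM. G6pc, which releases free glucose, rose 7.26-fold. Hk2, the hexokinase of proliferating cells, fell 2.39-fold.

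Of 31 transcripts for fatty acid oxidation and ketone bodies 26 rose (median 0.84), with Acaa1b of the peroxisome at 6.06-fold. Of the 3 members that fell, Acat1 and Bdh1, which act in ketone body metabolism, fell 2.39-fold and 1.94-fold. Of 73 transcripts of the respiratory chain 53 rose and 1 fell, by small amounts (median 0.37, or -0.14 with spike-in scaling). Cox7a1, a subunit of cytochrome oxidase, stood out with a 6.13-fold rise.

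In other lists the medians were smaller than in those for digestion and absorption, while single members moved further. Of 33 transcripts for antigen presentation and interferon response 23 rose (median 0.94), with H2-Q2 at 7.28-fold and B2m at 2.97-fold. Of 39 proteasome transcripts 20 fell and 5 rose (median -0.23, or 0.74 on the deposited copies). That is 64.1% called, against 72.7% of all transcripts. The catalytic subunits of the immunoproteasome, Psmb8, Psmb9 and Psmb10, were 3 of the 5 that rose, at 3.36-fold, 1.72-fold and 1.89-fold. Of 15 keratin transcripts Krt20 alone rose, while Krt18 fell from 1029 ± 38.1 to 356 ± 27.2 TPM. Among junction genes Cldn2, a cation channel claudin of the crypt, fell 8.99-fold and Cldn15, a sodium channel claudin of the villus, rose 2.52-fold. Of 25 cholesterol synthesis transcripts 16 rose, with a median of 0.46, or -0.05 with spike-in scaling.

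Genes reported for the base and the tip of the villus rose in both cases. Of 9 base genes all 9 rose, with a median of 1.88, and of 13 tip genes 9 rose and Egfr fell, with a median of 1.48. Reg1 (NM_009042.1), a secreted lectin, gained the most TPM of all transcripts, at 37759, 43011, 48099 and 41413 TPM in EN against 3689, 3543, 3375 and 4079 TPM in ENR. Its relatives Reg3a and Reg3b, which kill bacteria, rose 11.1-fold and 8.95-fold.

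Secretory lineages moved in different directions. Of 15 goblet cell transcripts 13 rose, with a median of 2.04. Zg16 (XM_006508175.3), a lectin of goblet granules, was at 4357, 4329, 5154 and 4342 TPM in EN and 300.4, 232, 253 and 284 TPM in ENR, a 19.2-fold rise. Muc2, the mucin of the mucus layer, rose from 21.8 ± 1.86 to 129.9 ± 7.16 TPM and Clca1, secreted into mucus, 10.4-fold. Galnt12, which starts sugar chains on mucins, was the only member to fall (log2 -0.34, or 0.71 on the deposited copies).

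Of 17 enteroendocrine transcripts 14 rose and none fell (median 1.86). Reg4 went from 337 ± 7.17 to 999 ± 13.5 TPM and Chga, a granule protein, rose 4.38-fold. Sst, somatostatin, had the largest fitted rise, but its 1 to 5 counts in ENR make the size uncertain (log2 3.46, SE 0.39). All 8 tuft cell transcripts tested rose (median 1.44), with Dclk1 at 5.92 ± 0.980 TPM in EN and 1.98 ± 0.151 TPM in ENR. The table held only 8 of 24 tuft cell symbols listed, 17 of 31 enteroendocrine and 15 of 22 goblet cell symbols.

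Paneth cell genes divided. Of 16 transcripts 11 fell and 4 rose, all at least 2-fold, with a median of -1.54. All 11 alpha-defensin transcripts of the table fell. Defa17 (NM_001167790.1) was at 8582, 8441, 8271 and 7946 TPM in ENR and 748, 807, 822 and 772 TPM in EN. Defa6 fell from 5631 ± 296 to 1869 ± 217 TPM, and Mmp7, which activates defensins, 5.92-fold. Alpha-defensins are near copies, so single members are uncertain. The 4 that rose were Reg3a, Reg3b, Reg3g and Guca2b, which enterocytes also express. The summed level of the list was 30020 ± 595 TPM in ENR and 27930 ± 1517 TPM in EN.

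Mptx2 (NM_001205011.2), a pentraxin of Paneth cells, fell from 462 ± 37.1 to 6.17 ± 1.16 TPM, and Clca3b fell from 94.8 ± 3.00 to 1.61 ± 0.179 TPM. Mptx1, the paralog of Mptx2, moved the other way, from 46.3 ± 6.40 to 160.0 ± 11.9 TPM.

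Most tested markers of cells from outside the epithelium were near 0. Of 16 fibroblast and muscle symbols listed the table held 11, and of 20 blood and endothelial symbols 7. Absence of such cells cannot be read from so few. Of 8 tested fibroblast and muscle transcripts, 7 had a mean under 1 TPM in both media, and Vim, also made by other cells, was at 17.8 ± 2.26 TPM in EN and 6.81 ± 0.578 in ENR. Of 5 tested blood and endothelial transcripts 3 had a mean under 1 TPM in each medium, and the highest mean was 7.98 TPM, in ENR.

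Among intestinal transcription factors 18 of 32 transcripts rose and 9 fell, with a median of 0.39, or -0.12 with spike-in scaling. Of all transcripts 35.5% were higher and 37.2% lower. Creb3l3, a membrane-bound factor that drives lipid genes, rose from 98.8 ± 5.50 to 526 ± 20.6 TPM. Hnf4g (NM_013920.2), a nuclear receptor of enterocytes, was at 414, 426, 476 and 459 TPM in EN and 126, 130.0, 132 and 133 TPM in ENR. The rise was 3.81-fold (SE of the log2 value 0.05, adjusted p = 1.6e-14). Hnf4a, its paralog, and Cdx2, an identity factor of the intestine, did not pass the test, with log2 fold changes of -0.01 and -0.02. The Hnf4a value covers the transcript tested and not other isoforms of the gene. Ppara, a nuclear receptor for fatty acids, rose 2.56-fold, and Foxa2 fell from 9.78 ± 0.629 to 2.89 ± 0.137 TPM.

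The promoters of these genes were examined for short motifs of factors known from intestinal or dividing cells. RefSeq gave 1 promoter, from 250 bases before to 50 bases after the start, for 7172 of 8822 gene symbols. The letters CAAAGTCCA or CAAAGTTCA, a core of the HNF4 site, on either strand, stood in 30 of 958 promoters of genes called at least 2-fold higher in EN (3.13%), in 10 of 1235 of genes at least 2-fold lower (0.810%), in 0.608% of 1810 not called and in 0.862% of all 27025 promoters. The letters TTTCCCGC or TTTGGCGC, a core of the E2F site, stood in 74 of 1235 promoters of the lower genes (5.99%), 1.25% of the higher, 2.71% of those not called and 1.63% of all. A further 3 motifs were searched. CTTTGATC or CTTTGATG, of TCF/LEF, stood in 2.35% of the lower, 1.15% of the higher, 1.16% of those not called and 2.01% of all promoters. In the same order, CCAATCA or CCAATGA, of NFY, stood in 19.3%, 14.5%, 13.3% and 12.05%. TTTATTG or TTTATGG, of CDX, stood in 4.45%, 5.85%, 3.76% and 7.46%. These shares are a description, and a match is not a site of binding.

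The next 60-base stretches upstream of the start, on the gene's strand in build GRCm38.p6, show the HNF4 letters in capitals for 3 genes that rose. Alpi lies on the minus strand at chr1:87101607-87101666, Apoa4 on the plus strand at chr9:46240636-46240695 and Cyp3a11 on the minus strand at chr5:145879930-145879989.
Alpi: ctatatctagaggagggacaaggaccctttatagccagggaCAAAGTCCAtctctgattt
Apoa4: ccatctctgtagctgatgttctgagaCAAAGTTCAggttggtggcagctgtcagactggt
Cyp3a11: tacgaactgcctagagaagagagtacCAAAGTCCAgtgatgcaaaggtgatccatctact

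The E2F letters are shown for 2 genes of cell division that fell, Mcm5 on the plus strand at chr8:75109334-75109393, where they are read from the opposite strand, and Cenpm, a centromere protein at 34 to 45 counts in ENR and 0 to 2 in EN, on the minus strand at chr15:82244374-82244433.
Mcm5: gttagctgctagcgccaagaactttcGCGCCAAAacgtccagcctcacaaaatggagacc
Cenpm: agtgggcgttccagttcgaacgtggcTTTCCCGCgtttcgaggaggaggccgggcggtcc

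EN and ENR organoids also had deposited scores for H3K27ac, a histone mark of active promoters and enhancers, in 3 of the 4 labelled libraries per medium. ATAC-seq, which measures open chromatin, had scores for 4 per medium. The labels do not say whether these libraries came from the cultures used for RNA. For 7827 of 8822 gene symbols a region lay within 500 bp of a start site. On log2(score + 1), the median EN minus ENR difference of H3K27ac was 0.69 for the 1002 genes called at least 2-fold higher in RNA, -0.41 for the 1380 at least 2-fold lower and 0.11 for the 1886 not called. The difference was above 0 for 91.2%, 19.3% and 61.6% of them. Across genes, which are not independent replicates, the RNA and H3K27ac differences had a Pearson correlation of 0.634 and a Spearman correlation of 0.609.

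Open chromatin differed less. The ATAC medians were 0.13, -0.09 and 0.01 for the same groups, and the Pearson correlation with RNA was 0.265. Since summed scores differ between libraries, each was read against genes not called. On that scale the H3K27ac of the higher genes lay between -0.55 and -0.54 in the 3 ENR libraries and between -0.02 and 0.10 in the 3 EN libraries. For the lower genes the values were -0.26 to -0.23 in ENR and -0.95 to -0.90 in EN. Neither pair of groups overlapped, and the ATAC libraries did not overlap either, by a smaller margin.

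**Figure D4:**
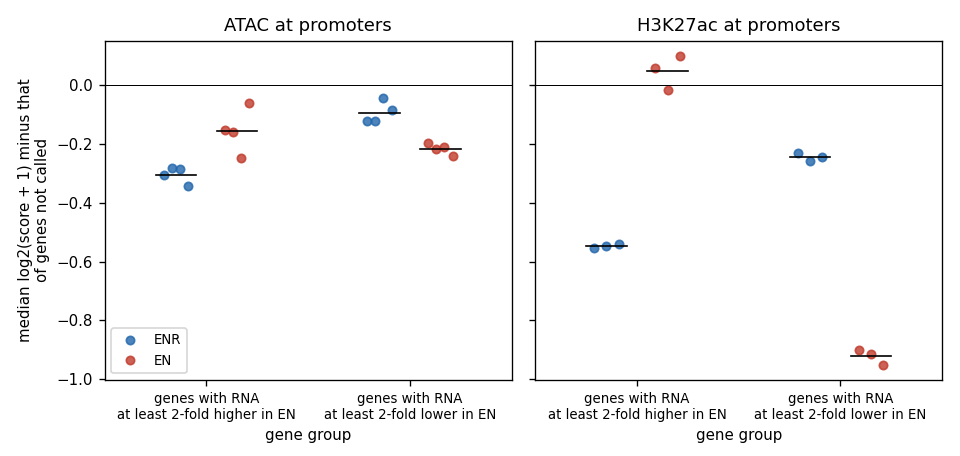
Median log2(score + 1) at promoters of genes whose RNA was called at least 2-fold higher or lower in EN, minus the median at genes not called, for each ATAC (left) and H3K27ac (right) library, with bars at group means. H3K27ac at the higher genes sits at about the level of genes not called in EN and 0.54 to 0.55 below it in ENR, and ATAC shifts the same way by less.

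Single promoters showed the range. At the Axin2 promoter (mm9 chr11:108781422-108783103) the H3K27ac score was 164, 342 and 276 in ENR and 68, 84 and 81 in EN. The ATAC score there was 124 ± 7.80 in ENR and 42.0 ± 6.78 in EN. At Lgr5 (chr10:115023230-115024435) H3K27ac was 57, 61 and 69 in ENR and 10, 7 and 9 in EN.

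The Hnf4g promoter (chr3:3633741-3634369) had H3K27ac scores of 15, 6 and 10 in ENR and 70, 24 and 75 in EN, with more spread among the EN libraries. At Sis (chr3:72771662-72771980) the mark went from 6, 4 and 4 to 61, 24 and 42, while the ATAC score was 30.8 ± 8.88 in ENR and 31.0 ± 10.1 in EN. At Mcm5 (chr8:77632531-77634420) the mark fell from 71, 68 and 70 to 29, 30 and 15, and the ATAC score was 133 ± 14.8 in ENR and 136 ± 19.8 in EN. The mark at Mcm5 did not overlap between the groups, while its ATAC scores did.

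The scaling decides how many transcripts count as higher or lower, since a share of RNA is measured and not an amount per cell. The paper added spike-ins to an equal mass of total RNA per sample, so spike-in scaling of the counts gives no amount per cell either. The median over all transcripts moved to -0.14 on log2(TPM + 1), to -0.52 with spike-in scaling of the counts, and to 1.06 on the copies that the authors derived from spike-ins. The higher and lower calls were 3301 and 3455 as reported, 1094 and 4275 with spike-in scaling, and 5403 and 797 on the copies. The summed copies ranged from 498750 to 1577575 among the ENR libraries alone. Relative to the median of all transcripts, the lists kept their direction under both spike-in based scalings except for the annexins, of which 3 of 11 transcripts rose and 3 fell, and for lists whose median was within 0.1 of it.

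**Figure D5:**
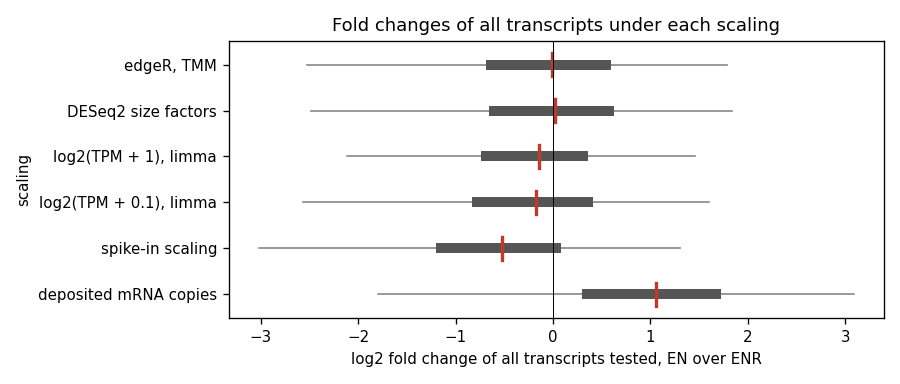
Log2 fold change of EN over ENR of all 9288 transcripts under 6 scalings, with the median (red), the quartiles (thick line) and the range from the 5th to the 95th percentile (thin line). The median moves from -0.52 with spike-in scaling to 1.06 on the deposited copies.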

How the data were processed

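RNA-seq libraries of EN (4), ENR (4) and CV (4) organoids were analysed. The authors deposited expected counts per RefSeq transcript as kallisto (0.43.0 in the submitters' notes) estimated them, TPM values from the same run, and an mRNA copy number, a score the authors computed by reference to 92 spike-ins. The deposited ATAC-seq and H3K27ac values are normalized scores per region of mm9, rounded by the authors.

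Expected counts were rounded and fitted over all 12 libraries with edgeR 4.0.16 (TMM, quasi-likelihood, common dispersion 0.00475) in R 4.3.3, and the EN minus ENR contrast was adjusted over all tested transcripts by Benjamini-Hochberg. On simulated counts with 200 transcripts changed, 96% of 2-fold changes were recovered with 3 false calls among 9273 tested. Of 1.5-fold changes 88% were recovered, with 2 false calls among 9274. The simulation gave every transcript the common dispersion and changed far fewer than the 6756 transcripts called here. Its rates may therefore not hold for this comparison. A count of 3 was taken as the floor. Alternatives used limma 3.58.1, DESeq2 1.42.0, other filters, scalings and thresholds, and each EN or ENR library left out.

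The members and gene lists were chosen with earlier results of these data known. Named genes were, by rule, the markers of the study, the 12 largest rises and falls without overlap, up to 3 rises and 3 falls of each list, the 10 largest TPM gains and losses, genes with opposed transcripts and transcripts at the floor in 1 group. Slc12a2, Ccnd1, Sox9, Lgr4, Ctnnb1, Lef1, Mki67, Rps27l, Slc1a1, Hnf4a, Cdx2, Reg3g, Mptx1 and the genes of single promoters were named after their values were seen. Some genes are not reported here. Sequences are from RefSeq. Start sites for mm9 are from GENCODE M1.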

Additional observations from a re-analysis of the deposited data

Results flagged for a closer look

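The genes named here gave 256 groups of 4 values, of which those with few counts in every library were skipped. Among the rest, 13 held a library set apart from the other 3 by a gap that took up most of the group's range (Dixon's test at 95%). Chance sets apart about 1 in 20 of the groups checked, and fewer than 256 were checked. All values are TPM.

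In EN3 Alpi was at 395 against 363 to 364 in the other EN libraries, Zg16 at 5154 against 4329 to 4357, Slc5a11 at 133 against 114 to 116, and Lrp6 at 32.3 against 34.5 to 34.8. In EN2 Lgr5 was at 0.198 against 0.592 to 0.660 and Clca3b at 1.34 against 1.67 to 1.72. In EN1 Slc7a5 was at 0.985 against 0.603 to 0.653. Each of these lay beyond the ENR range on the same side as the rest of its group.

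Among the ENR libraries Anpep was at 42.3 in ENR4 against 35.0 to 35.3, Hnf4a at 242 in ENR4 against 235 to 236, Hk2 at 13.9 in ENR3 against 14.2 in the others, and Gsk3a at 23.5 in ENR1 against 24.98 to 25.3. For transcripts whose reads were divided between forms, Myo6 XM_006510838.1 was at 1.77 in EN2 and near 0 in the other EN libraries, and Epb41 XM_017320238.1 was at 4.65 in ENR3 and at 0.0143 or less in the other ENR libraries.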

How the results depend on the processing

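Leaving out each EN or ENR library in turn gave 6543 to 6635 calls, and DESeq2 called 6526 of the 6756 again, all in the same direction. Tested against a change of 1.5-fold rather than 0, 3555 were called. The replicate block gave 6705 calls against 6756, and the numbers were not taken to pair the libraries, since same-numbered libraries deviated with a mean correlation of 0.0144 and 1 of 4 EN libraries correlated best with its own number. The scalings moved the split between higher and lower calls. With spike-in scaling 1094 transcripts were higher, and at 2-fold or more 627 were higher and 2775 lower. On the deposited copies 5403 were higher and 797 lower, and 5407 passed 2-fold, of which 4692 were higher and 715 lower. The cause was not tested.

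Relative to all transcripts, the keratin median of -0.42 became 0.048 on log2(TPM + 1), and the annexin median of 0.17 became -0.22 on the copies and -0.24 on log2(TPM + 0.1). On the copies the log2 fold changes of genes lower or not called turned positive for Hnf4a (0.94), Cdx2 (0.95), Galnt12 (0.71), Lgr4 (0.63), Smad5 (0.34), Slc1a1 (0.20), Egfr (0.19) and Eef1a1 (0.14). Spike-in scaling turned Ctnnb1 to -0.27 and Myo6 XM_006510836.2 to -0.16. Summing counts per gene reversed transcripts of Myo6 (0.090) and Epb41 (-0.0038). Transcripts with few counts in EN, such as those of Olfm4, Lgr5, Axin2 and Mcm3, limit the precision of the largest falls more than their SE shows.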

Other observations

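Several gene groups outside the comparisons above moved too. Of 16 transcripts of the p53 response and apoptosis 11 rose and 2 fell (median log2 fold change 0.62). Of 8 transcripts of the Yap pathway and fetal-type epithelium none rose and 6 fell (median -1.32). Of 79 chromatin modifiers 43 fell and 16 rose (median -0.37, or 0.68 on the deposited copies). That is 74.7% called, against 72.7% of all transcripts. Of 25 lysosomal enzymes 14 rose and 6 fell (median 0.37, or -0.14 with spike-in scaling). Stress and early response genes had no common direction, with 5 of 16 higher and 4 lower.

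Gene families were counted by name after their values were seen, beside the same 35.5% higher and 37.2% lower of all transcripts. All 12 tested transcripts of UDP-glucuronosyltransferases, which attach sugar acids to drugs and steroids, rose (median 1.74). Of 179 solute carrier transcripts 117 rose and 29 fell, and of 52 translation initiation factor transcripts 35 fell and 6 rose. Of 52 Rab GTPase transcripts 36 rose and 4 fell (median 0.54).

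Transcripts of the same gene were called in opposite directions for Myo6 and Epb41. Myo6, a myosin of the brush border, had log2 fold changes of 0.36 and -5.19, but 0.09 when its counts were summed. Epb41, a membrane skeleton protein, had 2.72 and -2.02 and a sum at -0.00. In both genes a transcript was near 0 TPM in some libraries of a group and not in others, and a part of the estimated split between transcripts in these values was not tested.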
